A study of Neurospora crassa with 24 samples.

Results

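The 7 genes described here take up and release sugar, sense it, or repress genes when it is plentiful in Neurospora crassa, a filamentous ascomycete that feeds on plant sugars. They were chosen by gene identifier from the 9730 genes of each deposited table: inv (NCU04265), glt-1 (NCU01633), hgt-1 (NCU10021), hgt-2 (NCU04963), rco-3 (NCU02582), NCU00821 and cre-1 (NCU08807). All 7 had a level at every stage on both media, and all 7 were tested in every comparison. RNA was sequenced from germinating conidia, the asexual spores, of the wild-type strain FGSC2489 (mating type A), in 24 libraries that fall into 8 groups of 3. Conidia were spread on maple sap medium (MSM) or on Bird medium (BM) and collected 15, 120, 240 and 360 min later, called stages 1 to 4 below. The times were chosen on BM, where they run from fresh spores to the first hyphal branch, and were reused on MSM. In the paper germination began earlier on MSM and hyphal development was slower there, so equal stages are equal times and not matched forms. BM is a synthetic medium rich in nitrogen, with glucose as its sugar. MSM is a natural medium with little nitrogen, in which sucrose is the main sugar. All groups shared the strain, conidia grown on BM, cellophane over the agar, 25°C and constant white light, so that every stage 1 sample came from spores made on BM and then moved to one of the media.

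Sucrose is cut outside the fungal cell by invertase into glucose and fructose, and the hexoses then enter through transporters of the major facilitator superfamily. Fungi carry low-affinity transporters that work when glucose is abundant and high-affinity ones that are made when it is scarce, and transporter-like proteins that carry little sugar can act as glucose sensors. When a preferred sugar such as glucose is present, the zinc finger repressor CRE-1 lowers the expression of genes for the use of other carbon sources, which is carbon catabolite repression.

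In the NC12 genome assembly the 7 genes lie on 5 linkage groups. The invertase gene inv is on linkage group V at 5424497 to 5426871. The transporter genes are glt-1, for a low-affinity glucose transporter, on II at 2887726 to 2890393, hgt-1, for a high-affinity one, on VII at 1305454 to 1307833, and hgt-2, also for a high-affinity one, on IV at 872084 to 874450. The gene rco-3, for a transporter-like protein required for glucose-regulated expression of transport and conidiation genes, is on I at 2804910 to 2808507, where the reference lists it under the symbol sor-4. NCU00821, which has no gene name and encodes a predicted transporter of the same superfamily, is on I at 7056000 to 7058684. The repressor gene cre-1 is on IV at 5176440 to 5178927.

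The deposited value is a LOX level, a Bayesian estimate of relative expression in which the 3 libraries of a group are pooled and the lowest stage of a gene on a medium is set to 1, so that 1 means neither absence nor an equal amount in different genes or media. Levels are therefore compared only within a gene and a medium, and each carries the authors' 95% interval in place of a spread between libraries. The tests below rest on those intervals and do not measure how far separate cultures differ. The numbers of reads per library were not analysed here. Each library is bulk RNA of a whole spore population, in which a larger share of germinated spores and more RNA per spore cannot be told apart. The interval of a level is narrow, with a median standard error of 0.0193 on the log2 scale on MSM and 0.0212 on BM, and 58.2% to 72.2% of genes passed the test in a step between consecutive stages on a medium, so the size of a change and its place among all genes say more than the call. The median gene itself changed in the BM table, by log2 -0.37, 0.42 and -0.30 in the 3 steps between consecutive stages, against 0.02, -0.04 and 0.15 on MSM. Unless called deposited, each change below has the median change of all genes in that comparison subtracted, and a gene is said to have risen or fallen where the Bonferroni adjusted p of the z test over all genes was below 0.01. Of 4 genes of conidia, eas, con-6, con-8 and con-10, 3 had their highest deposited level at stage 1 on MSM and all 4 on BM, and con-10 on MSM was highest at stage 4, with 2.64, against 2.12 at stage 1.

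Invertase transcript had its 2 highest levels early on both media, and the decline was far steeper on glucose-based BM. On MSM the level of inv was 5.06 (95% interval 5.04 to 5.08) at stage 1, 4.81 (4.78 to 4.83) at stage 2, 1 (0.989 to 1.01) at stage 3 and 1.27 (1.25 to 1.28) at stage 4. On BM it was 68.8 (68.7 to 69.0), 15.9 (15.7 to 16.0), 1.66 (1.61 to 1.71) and 1 (0.959 to 1.05) at stages 1 to 4. No 2 of the 4 intervals overlapped on either medium. The first step differed between media: at stage 2 inv still stood close to its first level on MSM and had lost most of it on BM. The change over stages 1 to 2 was -0.092 ± 0.00459 (SE) on MSM and -1.74 ± 0.00694 on BM, a difference of 1.62 ± 0.00832. Over stages 2 to 3 inv fell 4.69-fold on MSM, the 62nd lowest change of 8997 genes, and 12.8-fold on BM, the 21st lowest of 8923. From stage 3 to stage 4 it rose by 0.19 ± 0.0114 on MSM and fell by 0.43 on BM (SE 0.0391). Between stages 1 and 4 inv fell 4.37-fold on MSM and 55.9-fold on BM. Those were the 948th lowest change of 8988 genes on MSM and the 25th lowest of 8901 on BM.

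**Figure D1:**
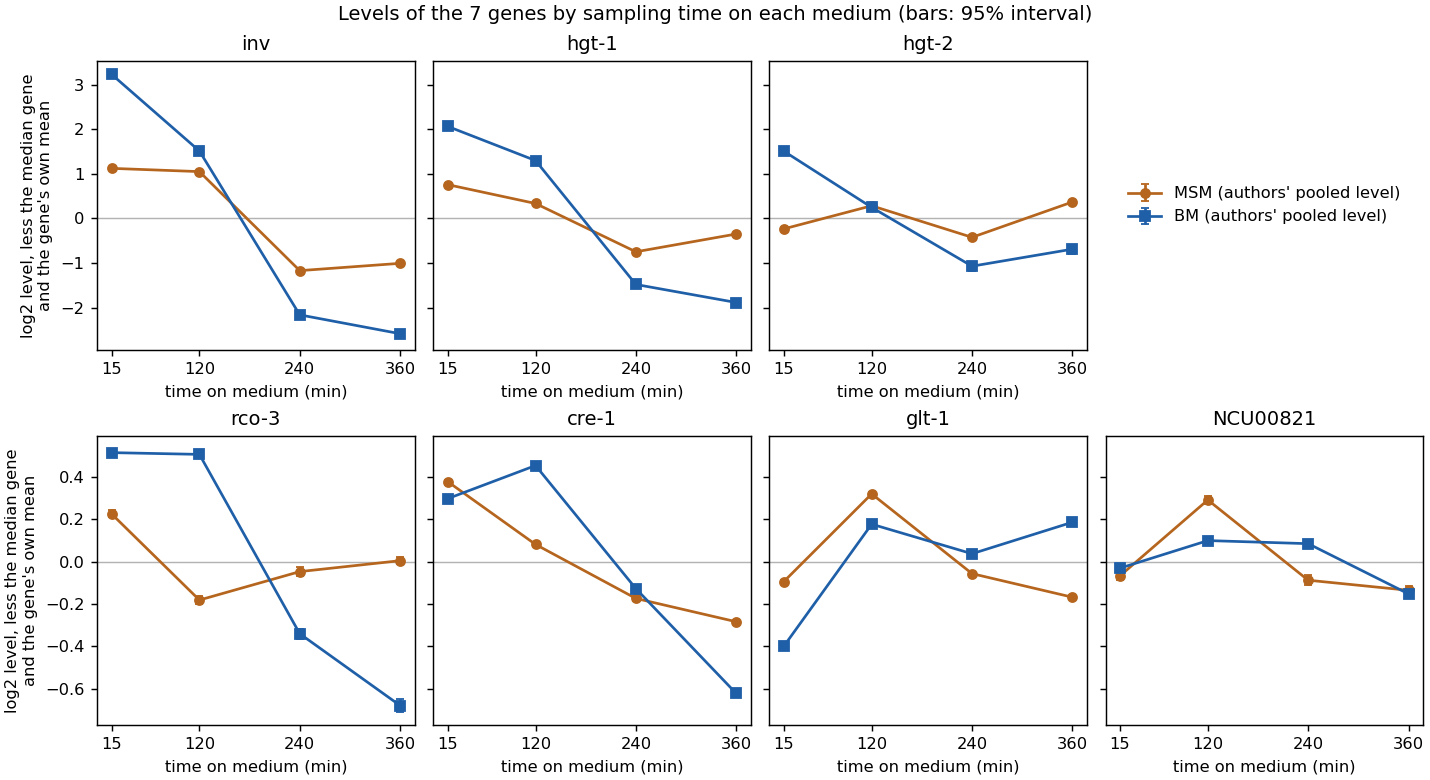
Authors' pooled levels of the 7 genes by time on MSM and BM, as log2 level less the median gene of the stage and less the mean of the gene on that medium, with 95% intervals as bars (most are smaller than the symbols). Both rows of panels have their own vertical scale. The BM line of inv runs from 3.24 at 15 min to -2.59 at 360 min, and no point of glt-1 lies beyond 0.40 on either side of 0.

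The high-affinity transporter gene hgt-1 had the same order of stages as inv on each medium, over a smaller range. Its level was 2.93, 2.18, 1 and 1.49 at stages 1 to 4 on MSM, and 18.8, 8.42, 1.64 and 1 on BM, with standard errors of 0.00198 to 0.0129 on the log2 scale. As with inv, the lowest point was stage 3 on MSM, after which the transcript rose, and stage 4 on BM. It fell by 0.44 over stages 1 to 2 on MSM (SE 0.00317), against a fall of 0.79 on BM (SE 0.00479), and by 1.09 over stages 2 to 3 on MSM (SE 0.00431), against 2.78 on BM (SE 0.0103). The last step was 0.43 ± 0.00464 on MSM and -0.42 ± 0.0159 on BM, in opposite directions. Between stages 1 and 4 hgt-1 fell 2.15-fold on MSM and 15.3-fold on BM. Those were the 2199th lowest change of 8988 genes on MSM and the 126th lowest of 8901 on BM.

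The other high-affinity transporter gene, hgt-2, ended above its starting level on MSM and well below it on BM. On MSM its level alternated, with 1.17 (1.15 to 1.20) at stage 1, 1.68 (1.66 to 1.71) at stage 2, 1 (0.975 to 1.03) at stage 3 and 1.96 (1.93 to 1.99) at stage 4. On BM it was 5.88 (5.77 to 5.99), 1.87 (1.78 to 1.96), 1 (0.928 to 1.07) and 1.05 (0.979 to 1.13), and the intervals of the last pair of stages overlapped. The gene thus rose, fell and rose again on MSM, by 0.50 ± 0.0193, -0.71 ± 0.0221 and 0.82 ± 0.0216. On BM it fell by 1.28 (SE 0.0378) and then by 1.32 (SE 0.0631). The last change on BM, 0.37 ± 0.0739, passed the test relative to the median gene (95% interval 0.23 to 0.52), but the deposited change of 0.075 did not. From first to last stage hgt-2 rose by 0.61 ± 0.0187 on MSM and fell by 2.18 on BM (SE 0.0539), and it was the only one of the 7 genes that rose on MSM and fell on BM. Its intervals were the widest of the 7 on BM.

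Transcript of the sensor gene rco-3 stayed within a narrow range on MSM and declined on BM. The level of rco-3 was 1.32, 1, 1.07 and 1.25 at stages 1 to 4 on MSM, and 2.78, 2.10, 1.56 and 1 on BM, with standard errors of 0.00803 to 0.0146 on the log2 scale. On MSM the lowest deposited level was at stage 2, whereas that of the other 6 genes was at stage 3. It fell by 0.43 over stages 1 to 2 on MSM (SE 0.0127) and then rose by 0.13 ± 0.0140 and 0.078 ± 0.0137. On BM the first step, -0.032 ± 0.0126, was not called different from the median gene (95% interval -0.06 to -0.01, before adjustment), although the deposited change of -0.40 was called lower, and rco-3 then fell by 0.84 (SE 0.0156) and 0.35 (SE 0.0190). From first to last stage rco-3 fell 1.16-fold on MSM and 2.26-fold on BM.

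The low-affinity transporter gene glt-1 and the unnamed transporter gene NCU00821 had deposited levels within a narrow range, none above 1.46. For glt-1 the level was 1.00, 1.34, 1 and 1.05 at stages 1 to 4 on MSM and 1, 1.13, 1.38 and 1.23 on BM, with standard errors of 0.00311 to 0.00450 on the log2 scale. Relative to the median gene glt-1 rose over stages 1 to 2, by 0.39 ± 0.00552 on MSM and 0.55 ± 0.00483 on BM, there the 1072nd highest change of 8974 genes. The later changes of glt-1 depended on the scale: over stages 2 to 3 on BM it fell by 0.14 relative to the median gene but changed by 0.28 as deposited, and over stages 3 to 4 it rose by 0.14 on BM against -0.16 as deposited, while over the same stages on MSM it fell by 0.084 against 0.065 as deposited. Between stages 1 and 4 it changed by -0.068 ± 0.00617 on MSM (0.061 as deposited) and by 0.60 ± 0.00486 on BM, which made it the only one of the 7 genes that ended higher on BM.

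NCU00821 had levels of 1.04, 1.34, 1 and 1.09 at stages 1 to 4 on MSM and of 1.32, 1.10, 1.46 and 1 on BM, with standard errors of 0.00778 to 0.0116 on the log2 scale. On MSM its profile was close to that of glt-1, with a single high stage, stage 2. Its steps on MSM were 0.34 ± 0.0142, -0.38 ± 0.0148 and -0.021 ± 0.0159, against 0.39, -0.38 and -0.084 for glt-1. The last step of NCU00821 did not pass the test (95% interval -0.05 to 0.01), although its deposited change of 0.13 did. On BM the 3 steps were 0.11 ± 0.0121, -0.011 ± 0.0121 and -0.25 ± 0.0122, where the first was -0.26 and the second 0.40 as deposited. Between stages 1 and 4 NCU00821 changed by -0.063 ± 0.0153 on MSM, which did not pass the test after adjustment (nor did the deposited change of 0.066), and fell by 0.10 on BM (SE 0.0122).

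Transcript of the repressor gene cre-1 declined on both media, by less than a factor of 2 relative to the median gene. The level of cre-1 was 1.51 (1.50 to 1.51) at stage 1, 1.23 (1.22 to 1.24) at stage 2, 1 (0.993 to 1.01) at stage 3 and 1.05 (1.04 to 1.06) at stage 4 on MSM. On BM it was 2.30 (2.28 to 2.31), 1.95 (1.93 to 1.96), 1.74 (1.73 to 1.75) and 1 (0.990 to 1.01). The decline of cre-1 was thus early on MSM, and on BM its largest step came last on the deposited scale. Relative to the median gene it fell on MSM by 0.32 (SE 0.00543), 0.26 (SE 0.00654) and 0.083 (SE 0.00727), of which the last was 0.067 as deposited. On BM it rose by 0.13 ± 0.00693 over stages 1 to 2, where the deposited change was -0.24, and then fell by 0.58 (SE 0.00729) and 0.50 (SE 0.00874). From first to last stage cre-1 fell 1.57-fold on MSM and 1.87-fold on BM.

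**Figure D2:**
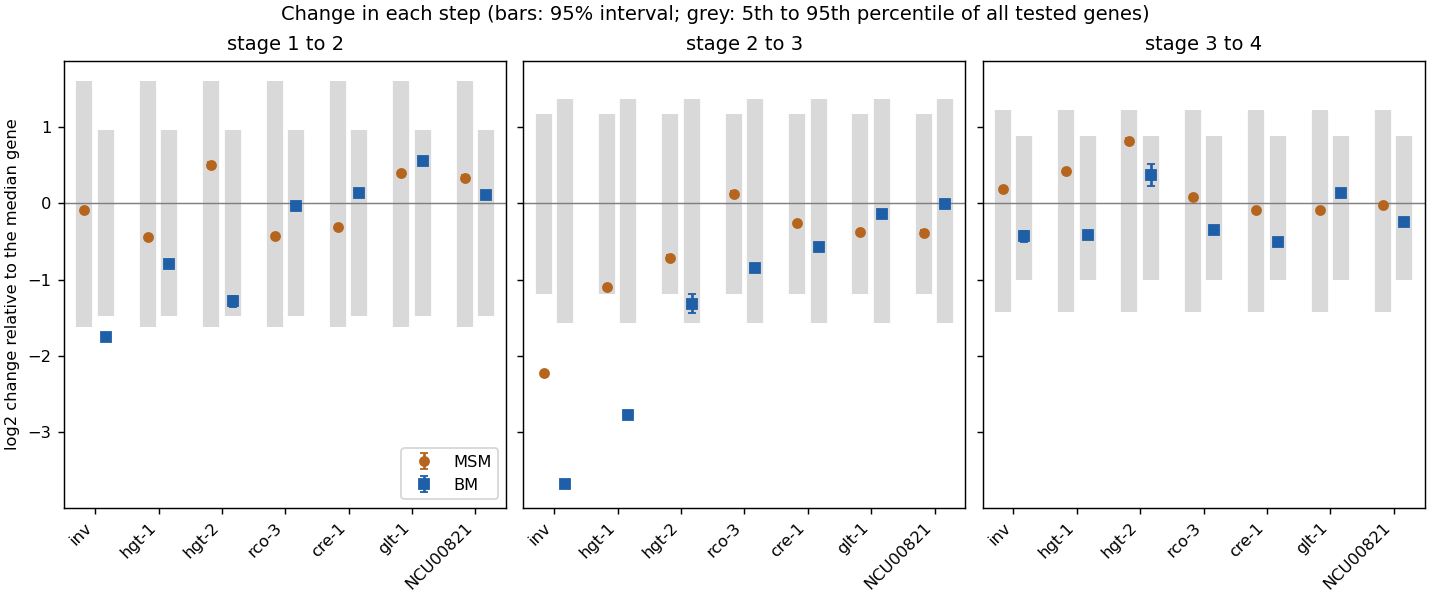
Log2 change of the 7 genes relative to the median gene in the 3 steps between consecutive stages, on MSM (circles) and BM (squares), with 95% intervals as bars. Grey bands span the 5th to the 95th percentile of all genes tested in that step on that medium. Outside the bands lie inv over stages 1 to 2 on BM (-1.74) and over stages 2 to 3 on both media (-2.23 on MSM and -3.67 on BM), and hgt-1 over stages 2 to 3 on BM (-2.78).

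Each called change of the 7 genes had a Bonferroni adjusted p of at most 0.0045. Counted over the 7 genes, falls prevailed in the middle step and over the whole course. Over stages 1 to 2, 4 fell and 3 rose on MSM, against 3 and 3 on BM, where rco-3 was not called. In that step 36% of all genes fell and 36.2% rose on MSM, and 31.1% fell and 30.1% rose on BM. Over stages 2 to 3, 6 fell on MSM, where rco-3 rose, and 6 fell on BM, where NCU00821 was not called, while 32% of all genes fell and 34.4% rose on MSM and 35.6% fell and 35.1% rose on BM. In the last step 2 fell and 4 rose on MSM, against 5 and 2 on BM, while 33.7% of all genes fell and 34.1% rose on MSM and 27.1% fell and 31.1% rose on BM. Between stages 1 and 4, 5 fell and 1 rose on MSM, with 40.4% of all genes falling and 41.7% rising, and 6 fell and 1 rose on BM, with 38.4% and 39.6%. The median size of the whole-course change of the 7 genes was 0.61 on MSM, against 1.06 over all genes tested, and 1.18 on BM, against 0.75. The median over so few genes is that of a single gene, hgt-2 on MSM and rco-3 on BM.

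The subtraction of the median gene set how many genes were called lower on BM. Of all calls over stages 1 to 2 on BM, 50.8% were lower, against 88.3% as deposited, and the shares were 50.4% and 24.9% over stages 2 to 3, 46.6% and 83.9% over stages 3 to 4, and 49.2% and 62.5% over the whole course. On MSM the share moved by over 10 points only over stages 3 to 4, with 49.7%, against 36.8% as deposited. As deposited, all 7 genes rose over stages 3 to 4 on MSM, with 44% of all genes. Over stages 1 to 4 on MSM 4 fell and 2 rose as deposited, where 3357 of all 8988 genes fell and 4032 rose. On BM 6 fell and 1 rose over stages 1 to 2 as deposited, with 61.2% and 8.09% of all genes, 5 fell and 2 rose over stages 2 to 3, with 18.8% and 56.6%, and 6 fell and none rose over stages 3 to 4, with 56.7% and 10.9%. For inv, hgt-1, hgt-2 and rco-3 the direction of every called change was the same on both scales.

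Whether the sugar genes changed differently on the media was addressed by the difference between the changes on MSM and on BM. It compares equal times, so an effect of the medium on these genes and a different pace of germination cannot be told apart. From first to last stage the change was higher on MSM for inv, hgt-1, hgt-2, rco-3 and cre-1, lower for glt-1, and not called for NCU00821, while 37.6% of all genes tested were higher and 37.2% lower. The difference was 3.59 ± 0.0334 for inv, the 116th highest of 8781 genes, 2.74 ± 0.0136 for hgt-1 and 2.70 ± 0.0571 for hgt-2. In hgt-2 the first step gave the largest difference, 1.76 ± 0.0424 (2.18 as deposited, also the largest). In hgt-1 it was the second, 1.72 ± 0.0111, whereas as deposited the last step was the largest, with 1.29, against 1.23 for the second. Over all genes tested the median size of the whole-course difference was 0.88, a size that rco-3, cre-1, glt-1 and NCU00821 did not exceed. The sensor gene rco-3 had a difference of 0.87 ± 0.0207 and cre-1 one of 0.16 ± 0.0105 (0.67 as deposited). That of glt-1 was -0.76 ± 0.00785 (-0.24 as deposited). That of NCU00821, -0.047 ± 0.0196 (95% interval -0.09 to -0.01 before adjustment), was not called, although its deposited difference of 0.47 was.

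**Figure D3:**
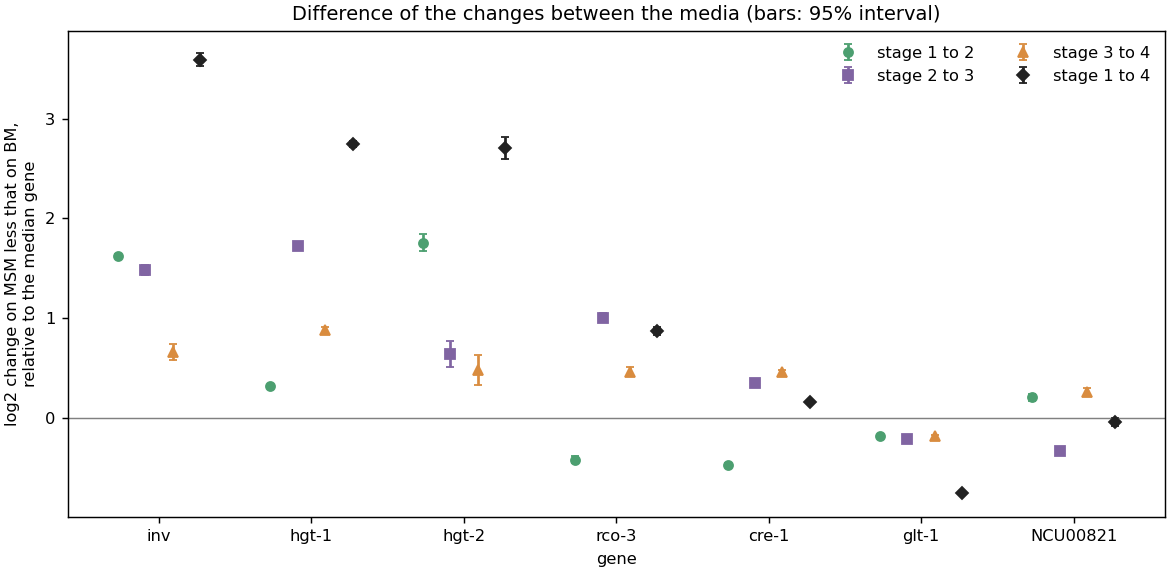
Difference between the log2 changes on MSM and on BM (MSM less BM), each relative to the median gene, for the 7 genes in each step and over the whole course, with 95% intervals as bars. Over the whole course inv is at 3.59, hgt-1 at 2.74 and hgt-2 at 2.70, and glt-1 is below 0 in every step, which as deposited held only over stages 2 to 3 and the whole course.

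By step, 4 of the 7 genes had a higher change on MSM over stages 1 to 2 and 3 a lower one (33.1% and 33% of all genes), 5 and 2 over stages 2 to 3 (34% and 32.3%), and 6 and 1 over stages 3 to 4 (28.6% and 32.4%). In the first step the change of rco-3 and cre-1 was lower on MSM, by differences of -0.42 ± 0.0178 and -0.48 ± 0.00880. As deposited the rco-3 difference in that step was -0.0022, which was not called, and that of cre-1 was -0.056. In both later steps their change was higher on MSM relative to the median gene. For rco-3 those later differences were 1.00 ± 0.0210 and 0.46 ± 0.0235, and for cre-1 they were 0.35 ± 0.00979 and 0.45 ± 0.0114, of which that of 0.35 was -0.14 as deposited. For glt-1 the difference was negative in all 3 steps, -0.19, -0.21 and -0.19 with standard errors of 0.00713 to 0.00767, although those of stages 1 to 2 and 3 to 4 were 0.23 and 0.22 as deposited. The difference of hgt-2 over stages 2 to 3, 0.64 ± 0.0669, was 0.15 as deposited and then not called. For NCU00821 it alternated, with 0.20 ± 0.0187, -0.34 ± 0.0191 and 0.26 ± 0.0200. The share of calls that were lower was 49.9%, 48.7%, 53.2% and 49.7% in the 3 steps and over the whole course, against 22.1%, 76.7%, 22.1% and 32.5% as deposited.

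Neighbours in the order of stages were compared with the same test, which called 78% of all genes between stages 1 and 3 and 76.5% between stages 2 and 4 on MSM, and 75.7% and 74.7% on BM. Ordered by level relative to the median gene at each stage, inv and hgt-1 ran from stage 1 through 2 and 4 to 3 on MSM and through stages 1, 2, 3 and 4 on BM, with every neighbour in the order called different. For rco-3 the order was 1, 4, 3 and 2 on MSM and 1, 2, 3 and 4 on BM, where stages 1 and 2 were not called different. For cre-1 it was 1, 2, 3 and 4 on MSM and 2, 1, 3 and 4 on BM, with all neighbours called different. For hgt-2 it was 4, 2, 1 and 3 on MSM, where stages 4 and 2 were not called different (0.064 ± 0.0156, against a called 0.22 as deposited), and 1, 2, 4 and 3 on BM. For glt-1 it was 2, 3, 1 and 4 on MSM and 4, 2, 3 and 1 on BM, where stages 4 and 2 were not called different either (0.019 ± 0.00474, against a called 0.12 as deposited). For NCU00821 it was 2, 1, 3 and 4 on MSM and 2, 3, 1 and 4 on BM, where stages 1 and 3 and stages 3 and 4 on MSM were not called different, nor were stages 2 and 3 on BM. By deposited level the orders of inv, hgt-1, hgt-2 and rco-3 were the same. That of cre-1 was then 1, 2, 4 and 3 on MSM and 1, 2, 3 and 4 on BM. Both glt-1 and NCU00821 then ran 2, 4, 1 and 3 on MSM. On BM the deposited order was 3, 4, 2 and 1 for glt-1 and 3, 1, 2 and 4 for NCU00821.

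Likeness of profiles was measured as the Euclidean distance between the 8 log2 levels of 2 genes, each medium centred on the mean of the gene, over 8675 genes, and is a description without a test. Among the genes with a symbol, hgt-1 was the nearest to inv and the 4th nearest of all genes, at 1.90, followed by the catalase gene cat-2 at 2.03 and rpn-4, a regulator of proteasome genes in yeast, at 2.23. From hgt-1, whose smaller changes have more near neighbours, inv was the 218th nearest, and the nearest with a symbol were clr-1 at 1.10 and clr-2 at 1.35, which encode transcription factors of the response to cellulose, and the autophagy gene apg-1 at 1.36. The nearest to hgt-2 with a symbol were gcy-1 at 0.81, mig-3 at 0.84 and ena-1, for a sodium pump, at 0.89. Of these, gcy-1 was the nearest of all genes.

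The flatter profiles had closer neighbours, again named only from the genes with a symbol, 1118 of the 9730. For rco-3 these were mss4 at 0.28, the kinase gene stk-16 at 0.30 and the cell wall protein gene acw-3 at 0.32, and for cre-1 they were dcc-1 at 0.30, set-4 at 0.31 and the kinase gene stk-13 at 0.33. For glt-1 they were cyp450-31 at 0.25, sub-2 at 0.26 and poli at 0.38. For NCU00821 they were the nitrogen regulator gene nit-2 at 0.31, the catalase gene cat-4 at 0.31 and ro-1, for a dynein heavy chain, at 0.32. The first named ranked 10th nearest of all genes for rco-3, 14th for cre-1, 3rd for glt-1 and 19th for NCU00821. Among the 7 genes cre-1 was the 149th nearest to rco-3, at 0.54, and NCU00821 the 160th nearest to glt-1, at 0.51.

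Around these genes, 29 other genes of carbon use were followed, listed by symbol: 2 uptake genes, 13 genes of enzymes that release sugar from polymers and disaccharides, and 14 regulators. Between stages 1 and 4, 12 fell and 15 rose on MSM, where 40.4% of all genes fell and 41.7% rose, and 19 fell and 7 rose on BM, where 38.4% and 39.6% did. The difference between media was called higher on MSM for 21 and lower for 2, with 37.6% and 37.2% of all genes. As deposited, 21 fell and 4 rose on BM (48.6% and 29.1% of all genes), and the difference was higher for 25 and lower for 0 (51.1% and 24.6%). The 2 lower ones were the cellodextrin transporter genes cdt-1 (-0.67 ± 0.059) and cdt-2 (-0.82 ± 0.166), whose deposited differences, -0.15 and -0.30, were not called. The 2 genes rose by 0.78 and 0.92 on BM, the rise of cdt-2 not being called as deposited (0.62), while on MSM cdt-1 rose by 0.20 and the change of cdt-2, 0.18, was not called.

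Of the 14 regulators, 9 rose and 5 fell on MSM, with a median change of 0.56, and 3 rose and 10 fell on BM, with a median of -0.66, where 41.7% of all genes rose and 40.4% fell on MSM, 39.6% rose and 38.4% fell on BM, and the median gene is 0. In 12 of the 14 the change was called higher on MSM, and in none lower (37.6% and 37.2% of all genes). As deposited, 1 rose and 12 fell on BM (29.1% and 48.6% of all genes), and the difference was higher in 13 (51.1% of all genes). Of the genes tied to cyclic AMP signalling, pkac-1, for a catalytic subunit of protein kinase A, cr-1, for adenylate cyclase, and mcb, for the regulatory subunit, rose by 5.26, 1.56 and 1.03 on MSM. On BM pkac-1 rose by 3.88, mcb fell by 0.93 and cr-1 changed by 0.0031, which was not called (-0.30 as deposited, called lower). The other catalytic subunit gene pkac-2 rose by 0.81 on MSM and by 0.37 on BM (0.071 as deposited, not called). The G protein alpha subunit gene gna-1 rose by 0.36 on MSM and fell by 0.71 on BM, and the receptor gene gpr-4 fell by 0.92 on MSM and by 0.72 on BM. The genes rco-1 and rcm-1, for the corepressor pair known in yeast as Tup1 and Cyc8, rose by 0.50 and 0.61 on MSM, and on BM rco-1 fell by 0.18 and rcm-1 rose by 0.24, the rise of rcm-1 being -0.063 as deposited. The kinase gene prk-10, whose yeast counterpart is Snf1, rose by 0.83 on MSM and fell by 0.61 on BM. Like cre-1, the activator genes for polymer use clr-1, clr-2, xlr-1 and col-26 fell on both media. Their changes were -1.54, -0.58, -2.27 and -0.98 on MSM and -2.93, -2.46, -2.32 and -1.26 on BM. The remaining regulator of the list, vib-1, went the other way on MSM, with a deposited level of 1 at stage 1 and 2.19 at stage 4. On BM its deposited level was 1.47 at stage 1 and 1 at stage 4.

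Of the 13 hydrolase genes, 5 rose and 7 fell on MSM, with a median of -0.69, and 2 rose and 9 fell on BM, with a median of -1.23, against the same shares of all genes on each medium as for the regulators (41.7% and 40.4% on MSM, 39.6% and 38.4% on BM). In 9 of the 13 the change was called higher on MSM, and in none lower (37.6% and 37.2% of all genes). As deposited it was higher in 12 (51.1% of all genes). The glucoamylase gene gla-1 rose by 1.70 on MSM and its change of 0.13 on BM (-0.16 as deposited) was not called on either scale. The trehalase gene tre-1, whose enzyme splits the storage sugar of spores, fell by 1.32 on MSM and by 2.54 on BM, in the direction of inv and by less. Among the genes of glycoside hydrolase families that include starch-cleaving enzymes, gh13-5 and gh31-2 rose by 2.17 and 1.73 on MSM and by 0.79 and 0.95 on BM, and gh13-4 and gh13-6 fell, with changes of -1.90 and -2.24 on MSM and of -2.58 and -2.36 on BM. The change of inv on BM, -5.81, was lower than that of each of the 29 genes. The standard errors of these whole-course changes were 0.0033 to 0.24 over the 29 genes.

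**Figure D4:**
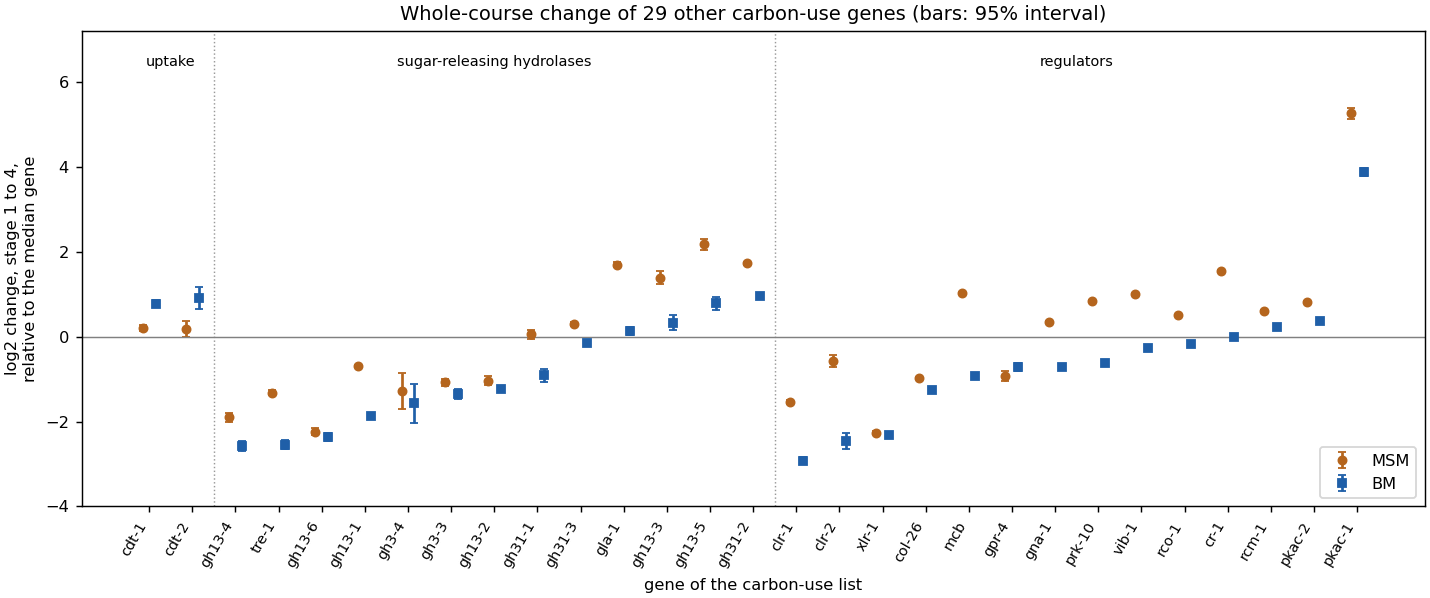
Whole-course log2 change (stages 1 to 4, relative to the median gene) of the 29 other carbon-use genes on MSM (circles) and BM (squares), grouped by class, with 95% intervals as bars. For both uptake genes the BM value lies above the MSM value, and for most hydrolases and regulators below it, while pkac-1 lies highest at 5.26 on MSM and 3.88 on BM.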

How the data were processed

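There were 3 replicate libraries per medium and stage. The authors trimmed the reads, aligned them to the OR74A v12 (NC12) genome with TopHat2 2.0.12, counted uniquely mapped reads in exons with HTSeq 0.6.1p1 and estimated levels with LOX. The deposited value is the LOX level of a gene at a stage, a ratio to its lowest stage on the same medium. Distances to both bounds of the 95% interval come with it. Libraries are pooled, and each medium has its own table. Of the 9730 genes, 312 on MSM and 335 on BM hold a 0 at all stages and were not tested. A gene was also left out of a comparison where its level or lower bound was not above 0 at a stage concerned. This left 8975 to 9026 genes per comparison on MSM and 8868 to 8980 on BM. Acceptance ratios and likelihood densities in the tables were not used. Because the values are pooled, no SD or n is given.

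The change between stages was the log2 ratio of the levels, its standard error came from the width of both intervals on the log2 scale, and the median change of all genes tested was subtracted. A two-sided z test was adjusted by Bonferroni over all genes tested, with a threshold of 0.01. The Bonferroni adjustment follows the authors' methods, and how far separate cultures differ was not tested. The difference between media was the MSM change less the BM change, with its own median subtracted. The text names the 7 genes, genes of the carbon-use list and, for each of the 7, the 3 genes with a reference symbol at the smallest profile distance. The carbon-use list holds 29 genes, matched in the reference by 32 symbols or by prefixes of symbol families such as gh13. Not every symbol was found, and hxk-1, hxk-2 and glk-1 were among those without a match. Symbols and coordinates came from the RefSeq table of NC12, which held 9729 of the 9730 identifiers; it does not give the names glt-1 and hgt-2 for NCU01633 and NCU04963. The genes and lists were chosen with earlier results of these data known. Alternatives were the deposited scale, Benjamini-Hochberg adjustment, a 2-fold minimum, wider standard errors and filters on imprecise genes. The work ran in Python 3.11.15 with SciPy 1.17.1, pandas 2.3.3 and numpy 2.4.6, and plots were drawn with matplotlib 3.10.9.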

Additional observations from a re-analysis of the deposited data

Results flagged for a closer look

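Differences between the changes on MSM and on BM that passed the test (MSM less BM, log2, relative to the median gene, Bonferroni adjusted over all genes) are listed for the 7 genes. Over stages 1 to 2 the difference was 1.62 for inv, 1.76 for hgt-2, 0.32 for hgt-1, 0.20 for NCU00821, -0.19 for glt-1, -0.42 for rco-3 and -0.48 for cre-1. Over stages 2 to 3 it was 1.72 for hgt-1, 1.48 for inv, 1.00 for rco-3, 0.64 for hgt-2, 0.35 for cre-1, -0.21 for glt-1 and -0.34 for NCU00821. Over stages 3 to 4 it was 0.88 for hgt-1, 0.66 for inv, 0.48 for hgt-2, 0.46 for rco-3, 0.45 for cre-1, 0.26 for NCU00821 and -0.19 for glt-1. Over the whole course it was 3.59 for inv, 2.74 for hgt-1, 2.70 for hgt-2, 0.87 for rco-3, 0.16 for cre-1 and -0.76 for glt-1. Without subtraction of the median gene, the difference of rco-3 over stages 1 to 2 was -0.0022 and that of hgt-2 over stages 2 to 3 was 0.15, and neither was called.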

How the results depend on the processing

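No replicate could be left out, because the deposited levels pool the libraries of a group. No paired analysis was possible because the columns carry no replicate. The pooled levels carry no error between cultures, so how far calls depend on it could not be tested. Multiplying every standard error by 3, a factor not drawn from replicates, took the call from 17 of the 112 changes of the 7 genes. It left 3 of 7 genes called over stages 3 to 4 on MSM. The rise of hgt-2 over stages 3 to 4 on BM was lost, as it was with the wider side of the interval. The falls of inv and hgt-1 over the whole course were called at every setting on both media.

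Without subtraction of the median gene, 14 of the 112 changes of the 7 genes had the other sign and a call on at least 1 of the scales. On MSM these were glt-1 (0.065), NCU00821 (0.13) and cre-1 (0.067) over stages 3 to 4, and glt-1 over stages 1 to 4 (0.061) and 1 to 3 (-0.0048). NCU00821 over stages 1 to 4 on MSM (0.066) also turned and was called on neither scale. On BM they were NCU00821 (-0.26) and cre-1 (-0.24) over stages 1 to 2, glt-1 (0.28) and NCU00821 (0.40) over stages 2 to 3, and glt-1 (-0.16) over stages 3 to 4. In the difference between media they were glt-1 over stages 1 to 2 (0.23) and 3 to 4 (0.22), cre-1 over stages 2 to 3 (-0.14) and NCU00821 over the whole course (0.47). Of the carbon-use list, rcm-1 (-0.063) and cr-1 (-0.30) on BM and xlr-1 in the difference (0.47) turned over the whole course, as did gla-1 on BM (-0.16) and gpr-4 in the difference (0.22), which were called on neither scale. The cause of the shift of the median gene was not tested.

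With a minimum change of 2-fold, 0, 2, 0 and 2 of the 7 genes were called on MSM (stages 1 to 2, 2 to 3, 3 to 4 and the whole course), 2, 3, 0 and 4 on BM, and 2, 3, 0 and 3 in the difference. Of all genes, 1829, 985, 1217 and 4298 were then called on MSM, against 6517, 5980, 6085 and 7378 without it, 838, 1568, 423 and 2958 on BM, against 5487, 6307, 5173 and 6941, and 1658, 1441, 1212 and 3415 in the difference, against 5859, 5841, 5348 and 6569. Of the 29 carbon-use genes, 16 were called on MSM over the whole course, against 27, 12 on BM, against 26, and 11 in the difference, against 23. With standard errors multiplied by 3, 3731 and 3777 genes were called over stages 2 to 3 and 3 to 4 on MSM, 2778, 3954 and 2492 in the 3 steps on BM, and 3361, 3353 and 2722 in the difference. The count of carbon-use genes in the whole-course difference was then 15. The other alternatives kept the count of the 7 genes called in either direction within 1.5 times in every comparison. With the counts by direction included, 10 of 36 moved further as deposited, 1 with Benjamini-Hochberg adjustment and 1 with the wider side of the interval. As deposited, the genes called lower over stages 1 to 2 on BM went from 3 to 6. Those called higher over stages 3 to 4 on MSM went from 4 to 7. Profile distances are unaffected by the subtraction of a stage median, and with Pearson r in place of the distance 1 of the 3 nearest genes named stayed for inv, hgt-1 and rco-3, 2 for glt-1 and hgt-2, and 0 for cre-1 and NCU00821.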
